A study of Schizosaccharomyces pombe with 12 samples.

Results

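The cytosolic ribosomal protein genes of fission yeast, Schizosaccharomyces pombe, were followed in 4 strains that differ at dcr1, the gene of the RNA interference ribonuclease Dicer. Members were taken by name: every measured feature whose standard gene name is rpl (large subunit) or rps (small subunit) followed directly by digits. These were 129 of the 5483 features measured, 74 of the large and 55 of the small subunit. A further 2 named genes, rpl1201 and rpl1202, were not analysed here. The members fell into 73 families, each with the copies of 1 ribosomal protein: 20 families with 1 measured gene, 50 with 2 copies and 3 with 3 copies. In all, 109 genes had a measured copy, which gave 59 pairs of copies, and the genes were spread over chromosomes I (58 genes), II (48) and III (23).

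The strains were wild type (strain SPB80), dcr1Δ (SPB81), dcr1ΔC33 (SPB287) and dcr1-SHSS (SPB776), with 3 biological replicates each. The labels name the Dicer alleles without describing them, and dcr1Δ is the deletion. By its title, the study was about how a zinc-binding motif next to the RNA-binding domain holds Dicer in the nucleus. The labels name no further marker or allele, and each genotype is represented by 1 strain. Total RNA of cultures harvested at an optical density of 0.5 was hybridised to tiling arrays, and all values below are log2 levels or differences of log2 levels.

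Ribosomes consist of a small subunit, which decodes the messenger RNA, and a large subunit, which joins the amino acids, each built from ribosomal RNA and a set of ribosomal proteins. In fission yeast most of these proteins are encoded by more than 1 gene, and the copies usually give nearly the same protein. In growing yeast their transcripts are among the most abundant of the cell, their transcription is tied to nutrient supply through the TOR pathway, and many of their promoters carry the HomolD box in place of a TATA box. No sequences of the genes were at hand, so protein likeness and promoters were not analysed here.

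The dcr1 level checked the labels: it lay between 10.49 and 10.60 on the wild-type arrays, between 5.37 and 5.80 on the dcr1Δ arrays, between 10.85 and 10.89 in dcr1ΔC33 and between 10.64 and 10.70 in dcr1-SHSS. The median signal of the ribosomal protein genes was 14.13 in wild type against 11.38 for all features, so most members sat in the brightest decile of the table (83 of 129). The members' median SD between replicates ranged from 0.0317 in dcr1ΔC33 over 0.0460 in wild type and 0.0487 in dcr1Δ to 0.0592 in dcr1-SHSS. A level also depends on the probes of a feature, so the level of 1 gene is not set against that of another, and the deciles rank signal on the array, not transcript abundance. Copies with nearly the same sequence can share probes, which would make their signals alike, and double-stranded target does not tell a gene from RNA of the opposite strand. The same amount of total RNA was labelled for each array, so a level is relative to total RNA. Precision is limited by how many arrays there are.

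Ribosomal protein transcripts were lower in dcr1-SHSS and dcr1ΔC33 than in wild type by small amounts spread over many members. A few copies fell much further. In dcr1ΔC33 the larger share of falling members than of all features was not seen under each scaling, as given below. In dcr1-SHSS, 71 of 129 members fell and 0 rose at an adjusted p under 0.05. These are 55.0% of the members, while 25.8% of all 5483 features fell and 15.0% rose (40.7% either way). Of the members, 125 had a change below 0, compared with 62.5% of all features. Their median log2 change was -0.133, or -8.8%, beside -0.057 over all features.

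In dcr1ΔC33, 49 members fell (38.0%) and 1 rose, while 17.6% of all features fell and 14.7% rose (32.3% either way). The median change of the members was -0.102, or -6.9%, beside -0.027 over all features, and 120 members lay below 0, compared with 56.3% of all features. The quartiles of the members were -0.163 and -0.066 in dcr1ΔC33 and -0.206 and -0.084 in dcr1-SHSS. Both comparisons use the same wild-type arrays. In dcr1ΔC33 the larger share of falling members was not seen after quantile normalization (21.7%, beside 21.4% of all features). A change of at least 1.5-fold was rare: rps2202 alone reached it in dcr1ΔC33, and rps2202 and rpl1603 in dcr1-SHSS.

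In dcr1Δ only 1 member, rpl1602, fell and 0 rose, while 0.328% of all features fell and 2.81% rose (3.14% either way). The members' median change was -0.027, that of all features 0.000, and 19 members (14.7%) had an unadjusted p under 0.05, beside 18.1% of all features. Of the 129 members, 88 had a change below 0, compared with 49.9% of all features. With no overlap of arrays, 24 members lay below wild type and 1 above, beside 9.4% and 11.6% of all features. After quantile normalization the members' median change was 0.002. The call for rpl1602 was lost when replicate number was fitted as a block, after quantile normalization and with the arrays of the 2 strains alone. In each of these fits 0 members passed. It was also lost without wild-type array 2 or 3 or without dcr1Δ array 2 or 3.

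**Figure D1:**
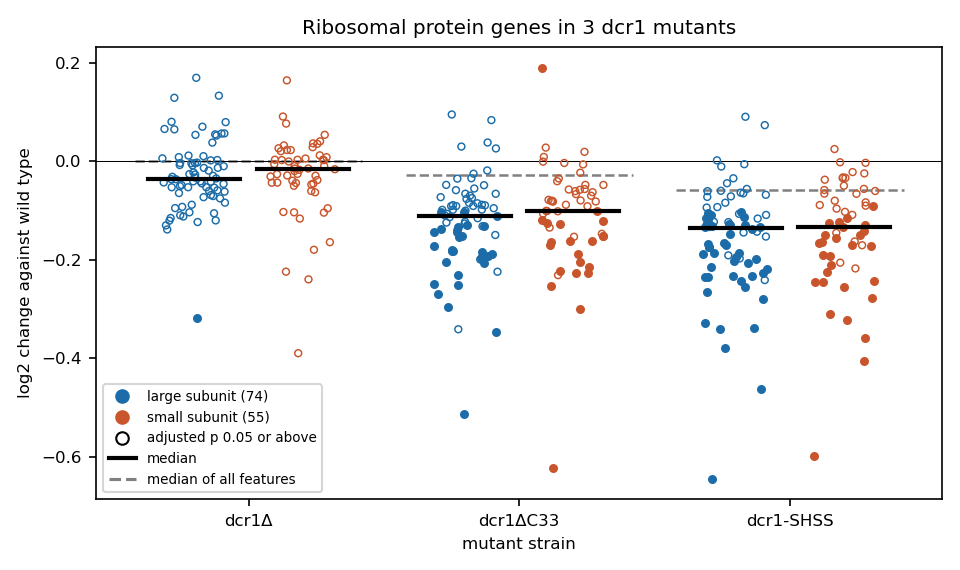
Log2 change against wild type (vertical axis) of each ribosomal protein gene in the 3 mutants, with 74 large subunit genes in blue and 55 small subunit genes in orange. Filled points passed an adjusted p of 0.05, black bars are medians and dashed grey lines the median of all 5483 features. The medians of both subunits lie below the dashed line in dcr1ΔC33 and dcr1-SHSS, at -0.112 and -0.100 and at -0.135 and -0.133.

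The members were also followed on single arrays. Relative to each member's mean over the 12 arrays, the median deviation of the members was 0.067, 0.086 and 0.065 on the wild-type arrays and 0.062, 0.051 and 0.009 on the dcr1Δ arrays. It was -0.045, -0.028 and -0.041 in dcr1ΔC33 and -0.017, -0.099 and -0.088 in dcr1-SHSS. Every array of both altered-Dicer strains thus lay below every wild-type and dcr1Δ array. The dcr1-SHSS array 1 and the dcr1Δ array 3 came nearest to closing this gap, and the SD of this median between arrays of 1 strain was 0.0273. The same median over all features was 0.029, 0.003 and 0.022 in wild type and 0.025, 0.028 and 0.0 in dcr1Δ. It was 0.002, -0.006 and -0.007 in dcr1ΔC33 and -0.025, -0.035 and -0.025 in dcr1-SHSS. On dcr1-SHSS array 1 the members (-0.017) thus did not lie below all features (-0.025).

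Because the members are bright, they were set beside other features of similar array signal. In the brightest decile, the 83 members had a median change of -0.113 in dcr1-SHSS and the 466 other features -0.018. There, 51.8% of the members and 14.8% of the others fell. In dcr1ΔC33 the medians were -0.098 and -0.054, and 36.1% of the members and 20.2% of the others fell. The next decile held 23 members, whose medians were -0.218 in dcr1-SHSS and -0.144 in dcr1ΔC33, beside -0.040 and -0.054 for the 525 others. In dcr1Δ the members and the others of the brightest decile had medians of -0.038 and -0.032. As a description, the members lay further below other bright features in dcr1-SHSS than in dcr1ΔC33, and close to them in dcr1Δ.

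**Figure D2:**
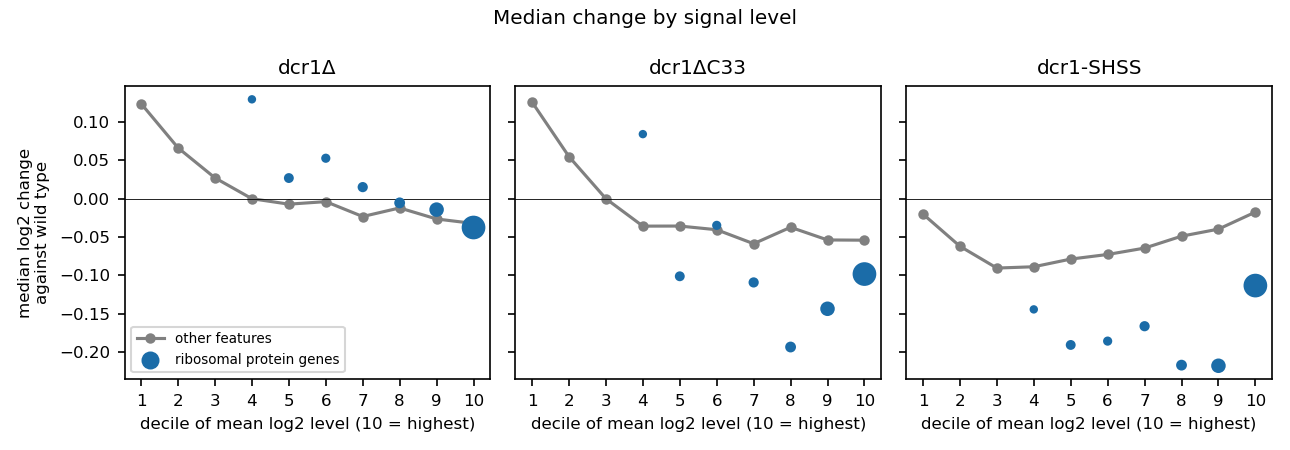
Median log2 change against wild type (vertical axis) by decile of the mean log2 level (horizontal axis, 10 is the brightest) for ribosomal protein genes (blue, area grows with the number of genes) and all other features (grey), in each mutant. The 9th and 10th hold 23 and 83 ribosomal protein genes and every other decile fewer than 20. In the brightest decile the blue point lies at -0.113 and the grey at -0.018 in dcr1-SHSS.

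The 2 altered-Dicer strains differed in how far their counts rested on the scaling and on single arrays. In dcr1-SHSS the number of members that fell lay between 50 and 79 with each array left out, was 68 after quantile normalization, and was 53 after cyclic loess. After cyclic loess these were 41.1% of the members, beside 15.1% of all features. In dcr1ΔC33 it was 28 after quantile normalization (21.7%, beside 21.4% of all features) and 18 after cyclic loess (14.0%, beside 11.9%). It was 21 without wild-type array 2 (16.3%, beside 13.9%), and 25, 32 and 29 with dcr1ΔC33 array 1, 2 or 3 left out (19.4%, 24.8% and 22.5%, beside 12.8%, 12.2% and 10.5%). The larger share of falling members in dcr1ΔC33 is therefore not seen under each scaling, whereas in dcr1-SHSS it is.

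**Figure D3:**
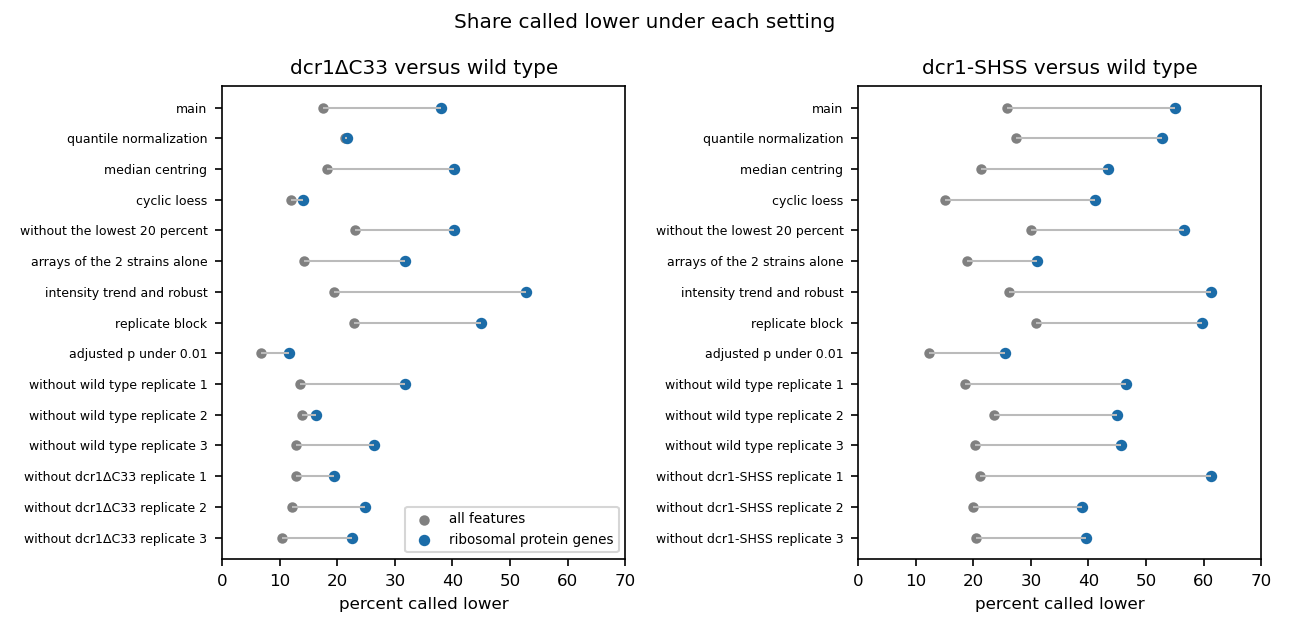
Percent of features that fell against wild type (horizontal axis) under 15 processing settings (vertical axis), for all features (grey) and the 129 ribosomal protein genes (blue), in dcr1ΔC33 (left) and dcr1-SHSS (right). The grey and blue points nearly meet in dcr1ΔC33 after quantile normalization (21.4 and 21.7) and are at least 12.1 percentage points apart in the rows drawn for dcr1-SHSS. The bound of 1.5-fold, with 0.3% of all features and 1.6% of the members lower in dcr1-SHSS, is not drawn.

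Genes of the large and of the small subunit were lower by about the same amount. In dcr1-SHSS, 43 of 74 large subunit genes fell (58.1%, median -0.135) and 28 of 55 small subunit genes fell (50.9%, median -0.133). Of all features, 25.8% fell there (median -0.057). In dcr1ΔC33 the counts were 29 (39.2%, median -0.112) and 20 (36.4%, median -0.100), beside 17.6% of all features (median -0.027). After quantile normalization 18 large and 10 small subunit genes fell there, when 21.4% of all features fell. In dcr1Δ the medians were -0.035 and -0.016. The difference of the medians, large minus small, was -0.019 in the deletion, -0.011 in dcr1ΔC33 and -0.002 in dcr1-SHSS, against an SD between arrays of 1 strain of 0.0155 for the same measure. By family, 28 of 42 large and 20 of 31 small subunit families had at least 1 copy that fell in dcr1-SHSS, and 24 and 12 in dcr1ΔC33. A family with more copies has more chances to hold such a copy, and no share over all features was computed for families.

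Among large subunit genes, the 3 copies of rpl16 differed most in their response. Their product is the homologue of human RPL13A. The first copy, rpl1601, lay at 14.95, 14.98 and 15.04 in wild type and at 15.01, 14.90 and 14.85 in dcr1Δ. It lay at 14.88, 14.85 and 14.86 in dcr1ΔC33 and at 14.90, 14.82 and 14.83 in dcr1-SHSS, below each wild-type array in both strains. Its log2 change was -0.12 ± 0.05 (SE, n = 3 per strain, adjusted p = 0.0623) in dcr1ΔC33 and -0.14 ± 0.05 (adjusted p = 0.0348) in dcr1-SHSS. This call in dcr1-SHSS was lost under quantile normalization, median centring and cyclic loess, and with the arrays of the 2 strains alone. It was also lost without wild-type array 2 or 3 or dcr1-SHSS array 2 or 3 (adjusted p up to 0.111). Here and below, "up to" gives the highest value over all alternatives tried for that result.

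The second copy, rpl1602, lay at 13.82, 14.02 and 13.94 in wild type and at 13.71, 13.62 and 13.49 in dcr1Δ. It lay at 13.66, 13.59 and 13.73 in dcr1ΔC33 and at 13.65, 13.50 and 13.48 in dcr1-SHSS. All 9 mutant arrays lay below all wild-type arrays, and the 3 mutants overlapped each other. The changes were -0.32 ± 0.07 in the deletion (adjusted p = 0.0418), -0.27 ± 0.07 in dcr1ΔC33 (adjusted p = 0.0177) and -0.38 ± 0.07 in dcr1-SHSS (adjusted p = 0.00262). The call in the deletion was lost under the alternatives named above (adjusted p up to 0.160). The dcr1ΔC33 call did not hold when array 2 of either strain was left out (adjusted p up to 0.0626).

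The third copy, rpl1603, lay at 11.63, 11.48 and 11.52 in wild type and at 11.57, 11.46 and 11.27 in dcr1Δ, which overlapped. It lay at 10.92, 11.11 and 11.07 in dcr1ΔC33 and at 11.12, 10.68 and 10.91 in dcr1-SHSS, below every wild-type and dcr1Δ array. The change was -0.51 ± 0.11 in dcr1ΔC33 (adjusted p = 0.00631) and -0.64 ± 0.11 in dcr1-SHSS (adjusted p = 0.00153), and -0.11 ± 0.11 in dcr1Δ (adjusted p = 0.644). In dcr1-SHSS this is 36.0% less signal, the lowest change of any member there.

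The copies' changes were compared within arrays, as the level of the lower-numbered copy minus that of the higher-numbered one. Against wild type, rpl1603 fell by 0.51 ± 0.10 more than rpl1601 in dcr1-SHSS (adjusted p = 0.0025) and by 0.39 ± 0.10 more in dcr1ΔC33 (adjusted p = 0.0117). The second copy changed by more than rpl1601 in dcr1-SHSS (difference 0.24 ± 0.05, adjusted p = 0.00521) and in dcr1Δ (0.25 ± 0.05, adjusted p = 0.0328). In dcr1Δ that difference did not pass once wild-type array 2 or 3, or any array of the deletion, was left out (adjusted p up to 0.133). It also did not pass with the arrays of the 2 strains alone. In dcr1Δ the difference between rpl1601 and rpl1603 did not pass.

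The rpl1 family encodes the protein at the tip of the mobile stalk through which spent transfer RNA leaves the ribosome. Its copy rpl102 lay at 11.52, 11.45 and 11.45 in wild type and at 11.50, 11.45 and 11.33 in dcr1Δ. The dcr1ΔC33 arrays gave 11.19, 11.09 and 11.10, and those of dcr1-SHSS 11.18, 10.81 and 11.06. Both altered-Dicer strains lay below all wild-type and dcr1Δ arrays. The change was -0.35 ± 0.08 in dcr1ΔC33 (adjusted p = 0.0101) and -0.46 ± 0.08 in dcr1-SHSS (adjusted p = 0.00184). The copy rpl101 lay between 15.28 and 15.36 in wild type and between 15.26 and 15.33 in dcr1-SHSS, which overlapped (-0.03 ± 0.04, adjusted p = 0.477). The copies differed in their change by 0.43 ± 0.09 in dcr1-SHSS (adjusted p = 0.00394) and by 0.28 ± 0.09 in dcr1ΔC33 (adjusted p = 0.0347), a call lost there with each of the 6 arrays left out in turn (adjusted p up to 0.109).

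The rpl25 and rpl4 families held further low members. Rpl25 lies beside the tunnel exit, where targeting factors dock, and Rpl4 lines the tunnel. The copy rpl2502 fell by 0.30 ± 0.06 in dcr1ΔC33 (adjusted p = 0.00588) and by 0.28 ± 0.06 in dcr1-SHSS (adjusted p = 0.00615). The copy rpl2501 fell by 0.34 ± 0.08 in dcr1-SHSS (adjusted p = 0.00611) and by 0.25 ± 0.08 in dcr1ΔC33 (adjusted p = 0.0284). The dcr1ΔC33 call did not hold after cyclic loess, or with wild-type array 1 or 2, or array 2 or 3 of dcr1ΔC33, left out. Both rpl25 copies therefore moved.

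In the rpl4 family, rpl401 lay at 13.40, 13.50 and 13.49 in wild type and at 13.40, 13.32 and 13.25 in dcr1Δ. In dcr1ΔC33 the arrays gave 13.19, 13.21 and 13.25, and those of dcr1-SHSS 13.23, 13.03 and 13.11. The dcr1-SHSS and dcr1ΔC33 arrays lay below all wild-type arrays, and dcr1Δ touched wild type. It fell by 0.25 ± 0.06 in dcr1ΔC33 (adjusted p = 0.00843) and by 0.34 ± 0.06 in dcr1-SHSS (adjusted p = 0.00132). Its copy rpl402 changed by -0.18 and -0.13, both past the threshold. In dcr1-SHSS rpl401 fell by more than rpl402 (difference -0.21 ± 0.05, adjusted p = 0.0106).

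The rpl7 family showed a copy difference in 1 mutant. The copy rpl702 lay at 13.81, 13.83 and 13.82 in wild type and at 13.58, 13.54 and 13.54 in dcr1-SHSS, with dcr1ΔC33 between them at 13.63, 13.68 and 13.72 and dcr1Δ at 13.86, 13.88 and 13.76. It fell by 0.27 ± 0.04 in dcr1-SHSS (adjusted p = 0.000677) and by 0.14 ± 0.04 in dcr1ΔC33 (adjusted p = 0.0197). The copy rpl701 lay at 15.11, 15.16 and 15.16 in wild type, 14.97, 14.97 and 15.03 in dcr1ΔC33 and 15.11, 15.11 and 15.07 in dcr1-SHSS. It fell in dcr1ΔC33 (-0.15 ± 0.03, adjusted p = 0.00596) and changed by -0.04 ± 0.03 in dcr1-SHSS (adjusted p = 0.289). The difference between the copies in dcr1-SHSS was 0.22 ± 0.04 (adjusted p = 0.000976).

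In the rpl27 family, rpl2701 lay at 14.74, 14.79 and 14.77 in wild type and at 14.60, 14.54 and 14.47 in dcr1ΔC33, while rpl2702 lay at 12.21, 12.19 and 12.09 and at 12.20, 12.19 and 12.18. The first copy was lower on each dcr1ΔC33 array and the second overlapped wild type. The copies differed by -0.26 ± 0.06 (adjusted p = 0.00923), with rpl2701 at -0.23 ± 0.04 (adjusted p = 0.0015) and rpl2702 at 0.03 ± 0.06 (adjusted p = 0.768). In dcr1-SHSS rpl2701 fell by 0.21 ± 0.04 (adjusted p = 0.00205) and rpl2702 was at -0.12 ± 0.06 (adjusted p = 0.133). In dcr1Δ rpl2701 lay at 14.65, 14.66 and 14.63, below each wild-type array, and its change of -0.12 did not pass the threshold. The copies differed there by -0.19 ± 0.06, which did not pass either (adjusted p = 0.128).

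Rpl11 and Rpl5 together bind the small ribosomal RNA of the large subunit. The copy rpl1102 lay at 13.17, 13.34 and 13.25 in wild type and at 13.01, 12.96 and 12.81 in dcr1-SHSS, which did not overlap. It fell by 0.33 ± 0.07 in dcr1-SHSS (adjusted p = 0.00369) and by 0.21 ± 0.07 in dcr1ΔC33 (adjusted p = 0.0372). The copy rpl502 fell by 0.22 ± 0.04 and by 0.18 ± 0.04 (adjusted p = 0.0023 and 0.00687), slightly more than rpl501 in both (differences of 0.09, adjusted p = 0.0486 and 0.0437).

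Among small subunit genes, the lowest copy was rps2202, 1 of 2 genes of Rps22, the homologue of human RPS15A. It lay at 12.16, 12.32 and 11.92 in wild type and at 11.80, 11.84 and 11.59 in dcr1Δ. Levels in dcr1ΔC33 were 11.26, 11.63 and 11.63, and those of dcr1-SHSS 11.54, 11.54 and 11.52. All mutant arrays lay below all wild-type arrays, and the wild-type arrays themselves spanned a wide range. The change was -0.62 ± 0.12 in dcr1ΔC33 (adjusted p = 0.00332), -0.60 ± 0.12 in dcr1-SHSS (adjusted p = 0.0031) and -0.39 ± 0.12 in dcr1Δ (adjusted p = 0.116). In dcr1ΔC33 this is 35.0% less signal and the lowest change of any member.

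Its copy rps2201 lay at 14.45, 14.56 and 14.45 in wild type and at 14.50, 14.56 and 14.50 in dcr1Δ. On the dcr1ΔC33 arrays it stood at 14.36, 14.48 and 14.39, and on those of dcr1-SHSS at 14.43, 14.41 and 14.47. It overlapped wild type in each mutant, with changes of 0.03, -0.08 and -0.05 that did not pass the threshold. The copies differed by 0.55 ± 0.10 in dcr1-SHSS (adjusted p = 0.00179), 0.54 ± 0.10 in dcr1ΔC33 (adjusted p = 0.00249) and 0.42 ± 0.10 in dcr1Δ (adjusted p = 0.0447). In dcr1Δ the difference did not pass once wild-type array 1 or 2, or any array of the deletion, was left out (adjusted p up to 0.166). It also did not pass with the arrays of the 2 strains alone or with scaled pair differences.

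In the rps0 family, whose product is the homologue of the human laminin receptor protein RPSA, the lower-numbered copy fell further. The copy rps001 lay at 13.90, 13.99 and 13.95 in wild type and at 13.84, 13.69 and 13.59 in dcr1Δ. The dcr1ΔC33 arrays gave 13.61, 13.60 and 13.74, and those of dcr1-SHSS 13.63, 13.50 and 13.50. Each mutant array was below each wild-type array. It fell by 0.30 ± 0.07 in dcr1ΔC33 (adjusted p = 0.0078) and by 0.40 ± 0.07 in dcr1-SHSS (adjusted p = 0.00127), and was at -0.24 ± 0.07 in dcr1Δ (adjusted p = 0.091).

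The copy rps002 lay between 14.95 and 14.97 in wild type, between 14.83 and 14.89 in dcr1ΔC33 and between 14.81 and 14.87 in dcr1-SHSS. It fell by 0.10 ± 0.03 and 0.12 ± 0.03 (adjusted p = 0.0346 and 0.0118). The dcr1ΔC33 call was lost with each of the 6 arrays left out in turn, and after quantile normalization and cyclic loess (adjusted p up to 0.329). Both calls were lost with the arrays of the 2 strains alone. The copies differed by -0.28 ± 0.05 in dcr1-SHSS (adjusted p = 0.00282) and by -0.20 ± 0.05 in dcr1ΔC33 (adjusted p = 0.0194), the latter not passing once wild-type array 2, or array 1 or 2 of dcr1ΔC33, was left out (adjusted p up to 0.0679).

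The rps30 copies differed in dcr1-SHSS. The copy rps3002 lay at 13.80, 13.56 and 13.49 in wild type, 13.38, 13.36 and 13.42 in dcr1ΔC33 and 13.38, 13.31 and 13.20 in dcr1-SHSS. Its wild-type arrays were spread widely, and both altered-Dicer strains lay below them. It fell by 0.32 ± 0.09 in dcr1-SHSS (adjusted p = 0.0186), a call lost without wild-type array 1 or dcr1-SHSS array 3 (adjusted p up to 0.066), and rps3001 was at 0.03 ± 0.06 (adjusted p = 0.776). The copies ranked the wild-type arrays in the same order. Their difference was 0.35 ± 0.08 (adjusted p = 0.00579) and passed with each array left out.

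Other low small subunit members were rps1002, a copy of the gene for Rps10 near the entry of the messenger RNA, and rps1701. The first lay at 13.76, 13.85 and 13.65 in wild type and at 13.45, 13.41 and 13.33 in dcr1-SHSS, and fell by 0.36 ± 0.07 there (adjusted p = 0.00215) and by 0.20 ± 0.07 in dcr1ΔC33 (adjusted p = 0.0368). The second lay at 13.89, 13.94 and 13.75 in wild type and at 13.62, 13.73 and 13.47 in dcr1ΔC33, and fell by 0.25 ± 0.08 (adjusted p = 0.029). This last call did not hold with wild-type array 1 or 2, or array 1 or 3 of dcr1ΔC33, left out (adjusted p up to 0.108). It also did not hold after quantile normalization or cyclic loess, or with the arrays of the 2 strains alone. In the rps16 family, rps1602 fell by 0.19 ± 0.04 in dcr1ΔC33 (adjusted p = 0.00683) and rps1601 was at -0.06 ± 0.04 (adjusted p = 0.236). Their difference of 0.13 ± 0.04 (adjusted p = 0.032) did not hold with wild-type array 2, or array 1 or 2 of dcr1ΔC33, left out. It also did not hold with the arrays of the 2 strains alone or with scaled pair differences.

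The only member that rose in any comparison was rps27, the single measured gene of a zinc-binding small subunit protein. It lay at 12.35, 12.31 and 12.21 in wild type and at 12.35, 12.55 and 12.46 in dcr1Δ. In dcr1ΔC33 the arrays gave 12.49, 12.45 and 12.49, and those of dcr1-SHSS 12.41, 12.22 and 12.23. The dcr1ΔC33 arrays lay just above wild type and the dcr1-SHSS arrays overlapped it. The change in dcr1ΔC33 was 0.19 ± 0.06 (adjusted p = 0.0434). It did not pass after median centring, nor without wild-type array 2 or 3 or any dcr1ΔC33 array (adjusted p up to 0.134).

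**Figure D4:**
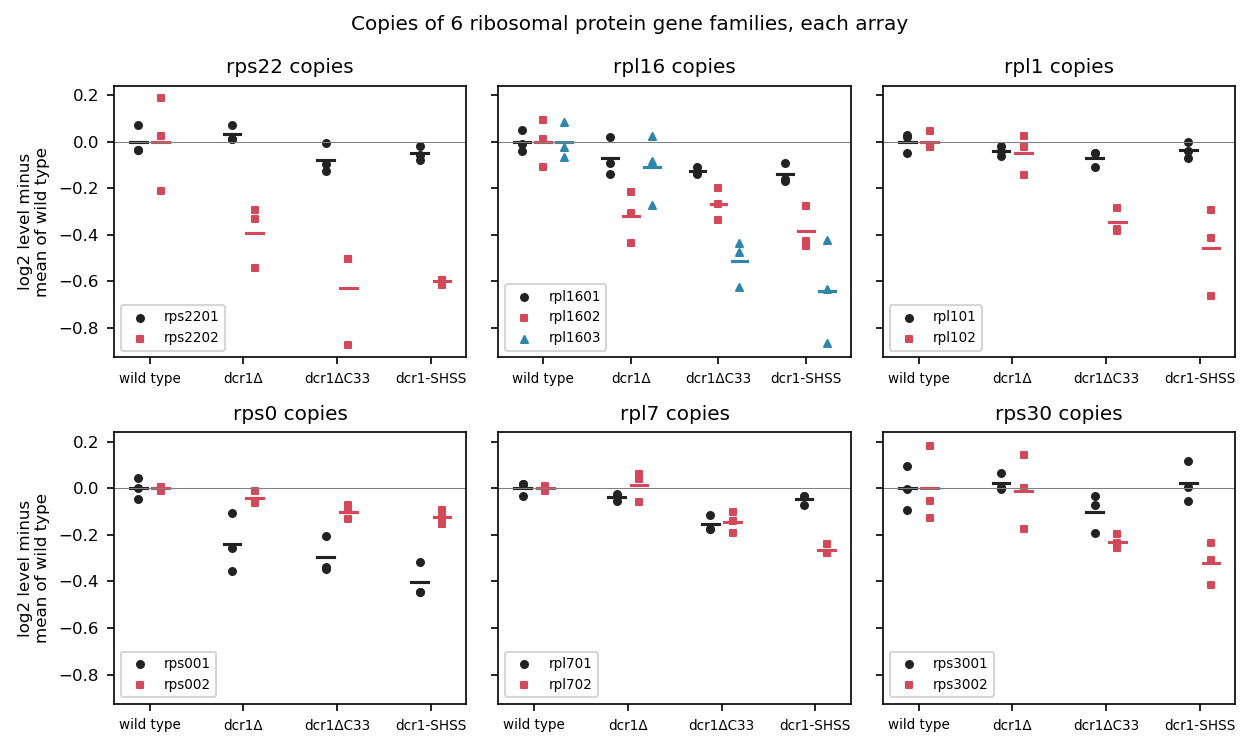
Log2 level of each copy on each array minus that copy's wild-type mean (vertical axis) in the 4 strains (horizontal axis), for 6 families, with 1 marker per array, n = 3 per strain, and bars at the means. The copies rps2202, rpl1603, rpl102 and rps001 lie well below their wild-type arrays in dcr1ΔC33 and dcr1-SHSS, while rps2201 overlaps its wild-type arrays in each mutant.

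Over the 59 pairs, a minority of copies differed in the size of their change. In dcr1-SHSS both copies fell in 26 pairs, 1 copy fell in 21 and neither in 12, and the difference between copies passed the threshold in 11. In dcr1ΔC33 the counts were 14, 23 and 22, with a tested difference in 7 pairs. In dcr1Δ 2 pairs differed. Of all features, 25.8% fell in dcr1-SHSS, 17.6% in dcr1ΔC33 and 0.328% in dcr1Δ. How often features that are not copies of each other differ in change was not computed, so these pair counts have no background share. A pair in which only 1 copy fell is not by itself a pair that differed, as the 21 and 11 in dcr1-SHSS show. The median size of the difference was 0.044 in the deletion, 0.066 in dcr1ΔC33 and 0.054 in dcr1-SHSS, and the largest were 0.42, 0.54 and 0.55. The 3 pairs of a family with 3 copies share copies, and pairs that share probes would show smaller differences than their transcripts. Among the differing pairs of dcr1-SHSS, the copy that fell further had the lower wild-type signal in the rps22, rpl16, rpl1, rps0, rpl4, rpl7 and rpl5 families. It had the higher signal in the rps30, rpl32 and rps23 families. As with the deciles, this ranks array signal, and whether signal level had a part in the differences was not tested.

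The further pairs that differed in dcr1-SHSS were rpl3201 and rpl3202 (-0.17 ± 0.05, adjusted p = 0.0219) and rps23 and rps2302 (0.15 ± 0.05, adjusted p = 0.0289). Rps23 lies at the decoding centre of the small subunit. Its copy rps2302 lay at 14.40, 14.40 and 14.36 in wild type and at 14.21, 14.14 and 14.07 in dcr1-SHSS, which did not overlap, and fell by 0.24 ± 0.06 (adjusted p = 0.00693). The copy rps23 lay at 13.91, 13.93 and 13.84 in wild type and at 13.91, 13.74 and 13.75 in dcr1-SHSS, which overlapped. The number of differing pairs in dcr1ΔC33 was 4 when wild-type array 2 was left out and 3 when dcr1ΔC33 array 1 or 2 was, and the 2 pairs of dcr1Δ fell to 0 without wild-type array 2 or dcr1Δ array 2 or 3 and to 1 without any other array.

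**Figure D5:**
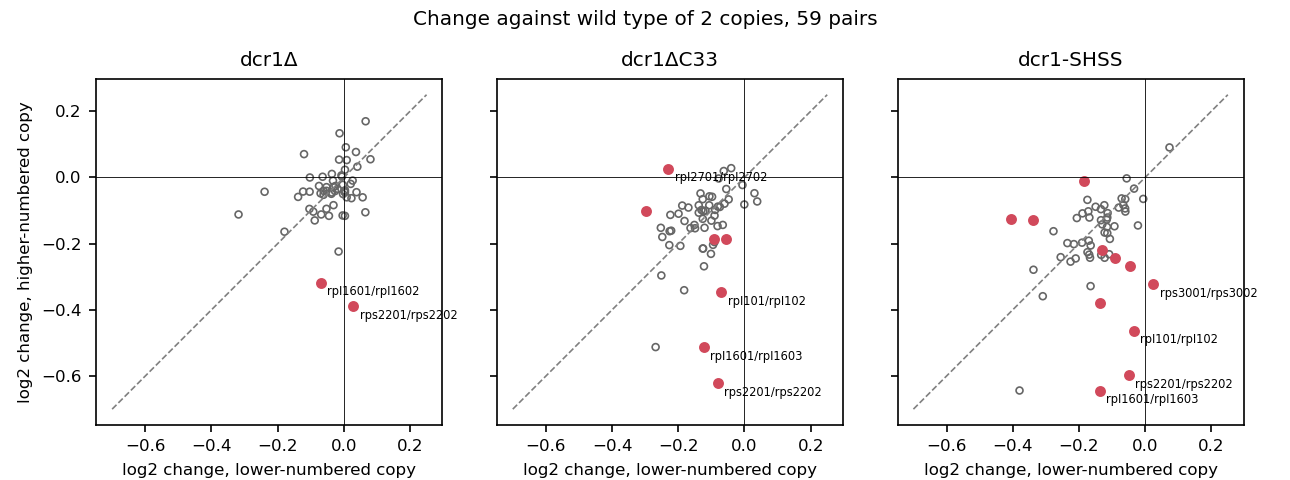
Log2 change against wild type of the lower-numbered copy (horizontal axis) and the higher-numbered copy (vertical axis) for 59 pairs, in each mutant. Red points are pairs whose difference passed an adjusted p of 0.05 (2, 7 and 11), with the largest 4 or fewer named, and the dashed line marks equal change. The rps22, rpl16 and rpl1 pairs lie far below the line in dcr1ΔC33 and dcr1-SHSS.

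Members without a measured copy were counted apart from those with one. In dcr1-SHSS 7 of 20 single genes fell, 35.0%, and 64 of 109 genes with a copy, 58.7%, beside 25.8% of all features. In dcr1ΔC33 these were 4 of 20 and 45 of 109, beside 17.6% of all features. The share of single genes that fell in dcr1ΔC33 was thus close to that of all features. The medians were -0.131 and -0.138 in dcr1-SHSS and -0.064 and -0.115 in dcr1ΔC33. Whether the classes differ was not tested. The single gene with the lowest change was rpl42, whose protein lies at the binding site of cycloheximide. It lay at 13.00, 12.97 and 13.04 in wild type, 12.82, 12.79 and 12.83 in dcr1ΔC33 and 12.87, 12.66 and 12.76 in dcr1-SHSS, and fell by 0.19 ± 0.05 (adjusted p = 0.0139) and by 0.24 ± 0.05 (adjusted p = 0.00346). The gene rpl6 was at -0.17 and -0.19, rpl8 at -0.10 and -0.13 and rpl31 at -0.11 and -0.10, each past the threshold. The rpl41 genes, which encode the smallest ribosomal protein, had the highest changes in dcr1-SHSS, 0.09 for rpl4102 and 0.07 for rpl4101, neither past the threshold.

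Whether the altered Dicer proteins left the ribosomal protein genes at the level of the deletion was tested directly. Between dcr1-SHSS and dcr1Δ, 44 members were lower in dcr1-SHSS and 0 higher, 34.1%, while 17.7% of all features were lower and 8.85% higher (26.6% either way). Of these, 27 belonged to the large and 17 to the small subunit, and the median change was -0.110 beside -0.052 over all features. The count was 15 without dcr1Δ array 1 (11.6%, beside 8.2% of all features) and 19 without dcr1Δ array 2 (14.7%, beside 9.9%). It was 17 without dcr1-SHSS array 2 or array 3 (13.2%, beside 11.1% and 11.5%) and 26 after median centring (20.2%, beside 12.1%). In the fit on the arrays of these 2 strains alone it was 13, or 10.1%, beside 10.3% of all features, so the larger share of lower members was not seen there.

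The lowest of these changes were at rpl1603 (-0.53 ± 0.11, adjusted p = 0.00805), rpl102 (-0.42 ± 0.08, adjusted p = 0.00647) and rpl3002 (-0.41 ± 0.13, adjusted p = 0.0393). Next came rpl3001 (-0.32 ± 0.06, adjusted p = 0.00497), rps3002, rpl2501, rpl3602, rps2501, rpl702 and rpl39, which lay between -0.31 and -0.27. Rpl30 is known in budding yeast to bind its own transcript and hold back its splicing. The copy rpl3001 lay at 13.21, 13.32 and 13.17 in wild type and at 13.28, 13.39 and 13.23 in dcr1Δ. Levels in dcr1ΔC33 were 13.02, 13.04 and 13.10, and those of dcr1-SHSS 13.08, 12.89 and 12.97. Wild type and the deletion overlapped, and both altered-Dicer strains lay below them.

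The copy rpl3002 lay at 12.86, 13.04 and 12.72 in wild type and at 13.06, 13.31 and 12.77 in dcr1Δ. On the dcr1ΔC33 arrays it stood at 12.42, 12.69 and 12.50, and on those of dcr1-SHSS at 12.74, 12.57 and 12.59. The spread within strains was wide. Its calls against the deletion were lost without dcr1Δ array 1 or 2, or without any array of the altered-Dicer strain compared (adjusted p up to 0.123). Both were also lost with the arrays of the 2 strains alone, and the dcr1-SHSS call after cyclic loess. Rpl39, a short protein of the exit tunnel, lay at 10.36, 10.54 and 10.38 in dcr1Δ and at 10.10, 10.21 and 10.16 in dcr1-SHSS, which did not overlap. It was at -0.27 ± 0.08 (adjusted p = 0.0257), a call lost without dcr1Δ array 2 or dcr1-SHSS array 1 or 3, and after cyclic loess. The calls for rps3002 and rpl2501 were also lost without single arrays (adjusted p up to 0.113 and 0.0641). Those for rpl1603, rpl102, rpl3001, rpl3602, rps2501 and rpl702 passed with each array left out. With the arrays of the 2 strains alone, the calls for rps3002, rpl2501 and rps2501 were lost.

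Of the pairs, 6 changed by different amounts between dcr1-SHSS and dcr1Δ. The largest were rpl1602 and rpl1603 (0.47 ± 0.10, adjusted p = 0.00987), rpl1601 and rpl1603 (0.46 ± 0.10, adjusted p = 0.00798) and rpl101 and rpl102 (0.42 ± 0.09, adjusted p = 0.00866). The others were rps3001 and rps3002 (0.31 ± 0.08, adjusted p = 0.0164), rpl701 and rpl702 (0.27 ± 0.04, adjusted p = 0.00106) and rpl3201 and rpl3202 (-0.22 ± 0.05, adjusted p = 0.0138). In the last pair, rpl3201 lay at 14.76, 14.79 and 14.71 in dcr1Δ and at 14.63, 14.55 and 14.51 in dcr1-SHSS, below it on each array, and rpl3202 overlapped at 14.42, 14.38 and 14.41 against 14.44, 14.38 and 14.48. The rps30 difference was lost without dcr1Δ array 1 or 2 or dcr1-SHSS array 3 (adjusted p up to 0.0645). The rps22 and rps0 pairs, which stood out against wild type, are not among these 6.

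Between dcr1ΔC33 and dcr1Δ, 7 members were lower in dcr1ΔC33 and 0 higher, 5.4%, while 3.28% of all features were lower and 4.61% higher (7.90% either way). Fitted with replicate number as a block, 17 members passed, all lower (13.2%, beside 8.0% of all features), and 847 features in place of 433. The 7 were rpl3002, rpl3001, rps23, rpl42, rpl702, rpl502 and rpl402, with changes between -0.51 and -0.12, and each was lost without at least 1 of the arrays. The count was 0 without dcr1Δ array 1 or 2 or dcr1ΔC33 array 1 or 3, and 2 without dcr1ΔC33 array 2 (1.6%, beside 1.3% of all features). The pair of rpl1602 and rpl1603 differed (0.45 ± 0.10, adjusted p = 0.0264), lost without dcr1Δ array 1 or 2 or dcr1ΔC33 array 1 or 3, and with the block 4 pairs differed.

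Between dcr1-SHSS and dcr1ΔC33, limma called 0 of the members, 21 of which (16.3%, beside 15.4% of all features) had an unadjusted p under 0.05, while 0.0547% of all features were higher in dcr1-SHSS and 0.0912% lower (0.146% either way). The members' median change was -0.033 beside -0.024 over all features. The pair of rpl701 and rpl702 differed by 0.23 ± 0.04 (adjusted p = 0.0369), since rpl701 was 0.11 higher and rpl702 0.12 lower in dcr1-SHSS. That difference was lost with each of the 6 arrays left out in turn and with the block (adjusted p up to 0.168). It was also lost after quantile normalization, median centring and cyclic loess, with the arrays of the 2 strains alone and with scaled pair differences.

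Some of the low copies lie beside features that also fell, and signal from overlapping transcripts is not told apart. By gene order in the RefSeq table, 235 measured features that are no members flank the members. Of these, 76 fell in dcr1-SHSS (32.3%, beside 25.8% of all features) and 54 in dcr1ΔC33 (23.0%, beside 17.6%), shares not far above the background. In the same strains 27 and 24 of the 235 rose, beside 15.0% and 14.7% of all features. Only neighbours that fell are named below. The feature mug165 beside rps2202 fell by 0.42 ± 0.05 in dcr1-SHSS (adjusted p = 0.000227) and by 0.31 ± 0.05 in dcr1ΔC33 (adjusted p = 0.00182). Beside rpl1603, apl1 fell by 0.18 ± 0.04 and 0.21 ± 0.04, and beside rpl3002, atl1 fell by 0.71 ± 0.08 and 0.40 ± 0.08. Beside rpl1602, frs1 fell by 0.25 ± 0.03 and 0.17 ± 0.03, and beside rpl102, smi1 fell by 0.19 ± 0.03 and 0.11 ± 0.03. The part of these neighbours in the signal of rps2202, rpl1603, rpl1602, rpl102 and rpl3002 was not tested. The genes rps001 and rpl2701, both lower in dcr1ΔC33 and dcr1-SHSS, are neighbours of each other, as are 7 further pairs of members.

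Genes that work with the ribosomal proteins did not all move alike. Of the 7 genes of the ribosomal stalk, the acidic proteins that recruit elongation factors and their anchor rpp0, 6 fell in dcr1-SHSS, 2 in dcr1ΔC33 and 0 in dcr1Δ, with medians of -0.293, -0.113 and -0.033. Of all features, 25.8%, 17.6% and 0.328% fell in these strains. The gene rpp203 lay at 11.24, 11.38 and 11.25 in wild type and at 11.19, 11.07 and 10.99 in dcr1Δ. The dcr1ΔC33 arrays gave 10.89, 10.97 and 11.01, and those of dcr1-SHSS 10.88, 10.71 and 10.67. All mutant arrays lay below wild type, with dcr1-SHSS the lowest. It fell by 0.54 ± 0.07 in dcr1-SHSS (adjusted p = 0.000287) and by 0.33 ± 0.07 in dcr1ΔC33 (adjusted p = 0.0056), and was at -0.21 ± 0.07 in dcr1Δ (adjusted p = 0.154). The anchor gene rpp0 was at -0.07 ± 0.04 in dcr1-SHSS (adjusted p = 0.149). Against dcr1Δ, 5 of the 7 were lower in dcr1-SHSS, beside 17.7% of all features.

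None of 4 ubiquitin genes, ubi1, ubi2, ubi3 and ubi5, which encode ubiquitin fused to a ribosomal protein, passed against wild type, and ubi5 was higher in dcr1-SHSS than in dcr1Δ (0.24 ± 0.06, adjusted p = 0.0175). Of 7 translation elongation factor genes, 0 passed against wild type. Their medians were -0.093 in the deletion, -0.075 in dcr1ΔC33 and -0.074 in dcr1-SHSS, and the smallest p was that of tef101 in dcr1Δ (-0.16 ± 0.05, adjusted p = 0.163) and dcr1ΔC33 (-0.13 ± 0.05, adjusted p = 0.0825) and of tef3 in dcr1-SHSS (-0.08 ± 0.03, adjusted p = 0.1). Of 8 genes of regulators, rrn7, a factor that binds the HomolD box, lay at 11.88, 11.83 and 11.92 in wild type and at 11.87, 11.88 and 11.79 in dcr1Δ. In dcr1ΔC33 the arrays gave 11.67, 11.71 and 11.62, and those of dcr1-SHSS 11.66, 11.68 and 11.67. Both altered-Dicer strains lay below all other arrays. It fell by 0.21 ± 0.04 in dcr1ΔC33 (adjusted p = 0.00292) and by 0.20 ± 0.04 in dcr1-SHSS (adjusted p = 0.00248). The TOR kinase gene tor2 fell in both (-0.14 and -0.13), sck2 in dcr1ΔC33 (-0.12), and fhl1, sfp1, mip1, psk1 and sck1 did not pass in either. Thus 3 of the 8 regulator genes fell in dcr1ΔC33 and 2 in dcr1-SHSS, while 17.6% and 25.8% of all features fell there.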

How the data were processed

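Total RNA of 12 cultures, 3 per strain, was measured on Affymetrix tiling arrays with biotin-labelled double-stranded target, per the labels' protocols. The values deposited by the authors are log2 levels, 1 per feature and array, and R 2.10.0 and affy are the tools named per the submitters' processing notes. Not given in the sources used here are background and scaling steps, probe handling, annotation and build. Whether probes shared by copies were removed, and how the log2 scale was centred, is therefore unknown. Array medians lay between 11.37 and 11.42. Signal close to saturation or background would shrink differences.

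Of 5483 systematic names, 5337 were found by locus tag and 20 by synonym in the RefSeq genes of assembly ASM294v3, and that table served for names and gene order only. Copies were grouped by the name before the copy number, with a gene whose name has no copy number taken as copy 1 (rpl15 beside rpl1502, and rps23 beside rps2302), and rpl8 kept apart from rpl801 to rpl803. The members and all gene lists were chosen with earlier results of these data known.

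The log2 levels were fitted as deposited in limma 3.58.1 under R 4.3.3: 4 strains over 12 arrays, eBayes with 2.44 prior and 8 residual degrees of freedom, 2-sided tests, Benjamini-Hochberg adjustment over all features, adjusted p under 0.05, 6 comparisons. Pair differences were fitted in 1 table with all features and adjusted over it. The scripts were tested on simulated data. Named members were, per comparison, the 10 lowest and 5 highest passing with no overlap of arrays, the 6 pairs that differed most with their families, members passing in a direction shared by 5 or fewer, and in each further list the gene that changed most among those passing, or else the one of smallest p. Others named are values of the same families, single genes and neighbours, chosen after their values were seen.

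Replicate numbers of the titles were checked by correlating, between strains, the deviations of arrays that share a number. Every pair was above 0.1 for dcr1Δ with wild type (0.151 to 0.354), dcr1ΔC33 with wild type (0.177 to 0.388), dcr1ΔC33 with dcr1Δ (0.131 to 0.3) and dcr1-SHSS with dcr1Δ (0.178 to 0.437), and the numbers were taken as pairing there. The lowest was 0.093 for dcr1-SHSS with wild type and 0.021 with dcr1ΔC33. The fit behind the counts did not use this pairing, which entered only through the replicate block among the alternatives. Alternatives were quantile normalization, median centring, cyclic loess, leaving out the lowest 20 percent of features, 2 strains alone, an intensity trend with robust moderation, the replicate block, a change of 1.5-fold, an adjusted p of 0.01, scaled pair differences and each array left out. A planned promoter motif search and protein identity of copies were not run, since no sequences were at hand.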

Additional observations from a re-analysis of the deposited data

Results flagged for a closer look

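The values here are differences between 2 mutants that passed the test of that difference itself, so a member's change from wild type differed between the mutants. All are log2 differences from the fit over 12 arrays. Between dcr1ΔC33 and dcr1Δ they were rpl3002 (-0.51), rpl3001 (-0.25), rps23 (-0.23), rpl42 (-0.18), rpl702 (-0.15), rpl502 (-0.15) and rpl402 (-0.12), each lower in dcr1ΔC33. Each of these 7 calls was lost without dcr1Δ array 1 or 2. They are 5.4% of the members, beside 3.28% of all features. Between dcr1-SHSS and dcr1Δ they were rpl1603 (-0.53), rpl102 (-0.42), rpl3002 (-0.41), rpl3001 (-0.32), rps3002 (-0.31), rpl2501 (-0.31), rpl3602 (-0.29), rps2501 (-0.28), rpl702 (-0.28), rpl39 (-0.27) and rpl3201 (-0.19), each lower in dcr1-SHSS. The calls for rpl3002, rps3002, rpl2501 and rpl39 were lost without single arrays. In all, 34.1% of the members were lower there, beside 17.7% of all features, and 10.1% beside 10.3% with 2 strains alone.

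For pairs of copies, the lower-numbered minus the higher-numbered copy differed between dcr1ΔC33 and dcr1Δ for rpl1602 and rpl1603 (0.45). Between dcr1-SHSS and dcr1Δ it differed for rpl1602 and rpl1603 (0.47), rpl1601 and rpl1603 (0.46), rpl101 and rpl102 (0.42), rps3001 and rps3002 (0.31), rpl701 and rpl702 (0.27) and rpl3201 and rpl3202 (-0.22). Between dcr1-SHSS and dcr1ΔC33 it differed for rpl701 and rpl702 (0.23), which rests on each of the 6 arrays. The difference between dcr1ΔC33 and dcr1Δ and the rps30 difference between dcr1-SHSS and dcr1Δ were also lost without single arrays.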

How the results depend on the processing

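No named member or pair that had passed turned its direction under any alternative. Each alternative reused the arrays in which the result had passed, so this gives no separate support for the directions. Of 66 named results, 59 stayed past the threshold after quantile normalization, 60 after median centring, 55 after cyclic loess, 48 with 2 strains alone and 64 with the replicate block, 66 without the lowest 20 percent of features and 66 with the trend. Of 44 named members 3 changed by at least 1.5-fold, and 34 of 66 results passed an adjusted p of 0.01. With no replicate block the counts were those of the report. With it, 58 members fell in dcr1ΔC33 (45.0%, beside 22.9% of all features), 77 in dcr1-SHSS (59.7%, beside 30.9%) and 0 in dcr1Δ. Against dcr1Δ, 54 were lower in dcr1-SHSS (41.9%, beside 23.7%). The block changed the call of rpl1602 in dcr1Δ and of the rpl701 and rpl702 difference between dcr1-SHSS and dcr1ΔC33, and no other named call.

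Members that passed in dcr1Δ, 1 in the report, were 0 after quantile normalization, with 2 strains alone, with the block, at 1.5-fold and at an adjusted p of 0.01, and 0 to 2 with an array left out. In dcr1ΔC33, 50 became 29 after quantile normalization, 19 after cyclic loess, 1 at 1.5-fold, 15 at 0.01, and 21 to 42 with an array left out. Those that fell were 21.7% after quantile normalization (beside 21.4% of all features), 14.0% after cyclic loess (beside 11.9%) and 11.6% at 0.01 (beside 6.7%). With an array left out they were 16.3% (beside 13.9%) to 31.8% (beside 13.6%). In dcr1-SHSS, 71 became 40 with 2 strains alone (31.0%, beside 18.9% of all features), 2 at 1.5-fold (1.6%, beside 0.3%) and 33 at 0.01 (25.6%, beside 12.4%). Between dcr1ΔC33 and dcr1Δ, 7 became 3 after cyclic loess (2.3%, beside 2.5% of all features) and 13 without the lowest features (10.1%, beside 5.7%). The count was 4 with 2 strains alone (3.1%, beside 1.4%), 19 with the trend (14.7%, beside 4.6%) and 17 with the block (13.2%, beside 8.0%). At 1.5-fold or 0.01 it was 0, and with an array left out 0 to 8 (8 being 6.2%, beside 3.8%). Between dcr1-SHSS and dcr1Δ, 44 became 26 after median centring (20.2%, beside 12.1% of all features) and 13 with 2 strains alone (10.1%, beside 10.3%). It became 0 at 1.5-fold, 10 at 0.01 (7.8%, beside 4.9%), and 15 to 49 with an array left out (11.6%, beside 8.2%, and 38.0%, beside 12.0%).

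Differing pairs in dcr1Δ, 2 in the report, were 0 with 2 strains alone and at 0.01, 1 with scaled differences, and 0 to 1 with an array left out. In dcr1ΔC33, 7 became 2 at 0.01 and 3 to 7 with an array left out, and in dcr1-SHSS 11 became 7 at 0.01. Between dcr1ΔC33 and dcr1Δ, 1 became 2 after quantile normalization, without the lowest features, with 2 strains alone and with the trend, 4 with the block, 0 at 0.01, and 0 to 2 with an array left out. Between dcr1-SHSS and dcr1ΔC33, 1 became 0 after quantile normalization, median centring and cyclic loess, with 2 strains alone, with the block, at 0.01, with scaled differences, and 0 to 0 with an array left out.

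The members' median change in dcr1Δ was 0.002 after quantile normalization and 0.006 after cyclic loess, in dcr1ΔC33 -0.066 and -0.052, and in dcr1-SHSS -0.103 after cyclic loess. With an array left out it was -0.168 to -0.123 in dcr1-SHSS, and -0.139 to -0.089 in dcr1-SHSS against dcr1Δ. Large minus small was -0.020 in dcr1-SHSS after quantile normalization, and with an array left out -0.026 to 0.007 there, -0.023 to -0.003 in dcr1Δ and 0.004 to 0.029 between dcr1-SHSS and dcr1Δ. The cause of these shifts was not tested, beyond the fewer arrays or stricter bounds that some alternatives set.

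Among all features, the share of passing features that were lower was 54.4% in dcr1ΔC33 and became 62.9% after quantile normalization and 41.9% after cyclic loess. It was 63.2% in dcr1-SHSS and 42.5% after cyclic loess, 10.5% in dcr1Δ and 21.9% after quantile normalization, 41.6% in dcr1ΔC33 against dcr1Δ and 29.7% after cyclic loess. It was 66.7% in dcr1-SHSS against dcr1Δ, 55.4% after median centring and 40.1% after cyclic loess. With the block, features that passed rose from 172 to 295 in dcr1Δ and from 433 to 847 in dcr1ΔC33 against dcr1Δ. With 3 arrays a strain, small changes of single members are at the limit of what the test can call.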
